A study of Mus musculus with 28 samples.

Results

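The nuclear-encoded subunits of the mitochondrial respiratory chain were followed across all libraries of the study. Members were chosen by symbol, as the protein-coding nuclear genes whose names begin with Nduf, Uqcr or Atp5 or with Cox4 to Cox8, together with Sdha, Sdhb, Sdhc and Sdhd. This rule took 93 of the 45513 genes listed. They comprise 7 core subunits, 29 accessory subunits and 8 assembly factors of complex I, 4 subunits of complex II, 8 of complex III, 18 of complex IV, 2 genes of the NDUFA4 family, and 17 genes of the ATP synthase (5 of the catalytic F1 head, 3 for the c ring, 8 of the stalk and membrane part and 1 associated gene, Atp5s). A further 11 symbols that fit the rule belong to processed pseudogenes and were left out.

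Complexes I and II feed electrons from NADH and succinate into ubiquinone, complex III passes them to cytochrome c and complex IV to oxygen. Complexes I, III and IV pump protons as they do so, and the ATP synthase lets the protons flow back to make ATP. Most subunits are made on cytosolic ribosomes from nuclear genes and imported, whereas a few central ones of complexes I, III, IV and the ATP synthase come from mitochondrial DNA and are not among the members. Neurons depend heavily on this pathway for their ATP.

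Each culture gave a library of ribosome footprints and a library of total mRNA. MN1 cells are a clonal line made by fusing motor neurons of mouse spinal cord with neuroblastoma cells. They were transiently transfected to express GFP as control, hTDP-43, or its A315T form (hTDP-43 A315T), with 2 cultures per group, and received cycloheximide at 100 µg/ml for 3 min before lysis. Primary cortical neurons of C57BL/6J mice were taken at E16 and harvested at DIV14, from non-transgenic animals (WT, 2 cultures) and from mice carrying a human TARDBP transgene, either wild-type (hTDP-43, 3 cultures) or A315T (3 cultures), driven by the prion protein promoter in both lines. All neuron cultures received the antimitotic agent Ara-C, and none had cycloheximide before lysis. The lysis buffer held cycloheximide at 100 µg/ml for both cell types. All MN1 cultures come from 1 hybrid line, and the number of animals behind a neuron culture is not given in the sources used here. The groups are called GFP, WT, hTDP-43 and A315T below.

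Libraries held between 166064 and 6969578 reads on genes, with the shallowest among the neuron footprints. A list of 10 neuronal genes summed to 5911 to 7033 CPM (read counts scaled to library size by TMM over all 28 libraries) in total mRNA of neurons and to 435 to 561 CPM in MN1 cells, and 12 glial genes to 89.1 to 149 CPM in neurons and 5.96 to 10.3 CPM in MN1 cells, where Aldh1l1, S100b, Mog and Csf1r were at 0. The motor neuron list reached 49.1 to 71.2 CPM in MN1 cells, where Isl1 alone was at 25.9 to 37.9 CPM. Its defining gene Chat, however, lay between 0 and 2.48 CPM there, and Mnx1 between 0.589 and 1.34 CPM. In neurons this list summed to 5.18 to 12.3 CPM, and 5 genes of dividing cells to 7.48 to 16.1 CPM against 685 to 987 CPM in MN1 cells. Fewer cells of a type and less RNA per cell cannot be told apart in such bulk libraries.

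Before the results, 2 neuron libraries of total mRNA have to be named, those of WT replicate 3 and hTDP-43 replicate 3. Ndufs7, a core iron-sulfur subunit of complex I (chr10:80249121-80256794 in GRCm38, plus strand), took 0.694% and 0.376% of all reads there, against 0.0126% to 0.0185% in the other 6 neuron libraries of total mRNA. Lars2, the mitochondrial leucyl-tRNA synthetase, took 18.8% and 14.1% of reads in the same libraries. It took 3.09% to 7.49% in the other 6 and 5.84% to 7.21% in total mRNA of MN1 cells, so it was high in all of them. The median log2 ratio of these 2 libraries to the other 6 was -0.75 over the 87 other members tested and 0.02 over all genes tested. In the whole table, 42 of 12801 genes were over 10 times the highest of the other 6 libraries in both. Counts and medians between cell types and library types that draw on them are given with and without them, and their origin was not tested.

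Respiratory chain mRNAs made up a larger share of reads in MN1 cells than in neurons, and a larger share of footprints than of total mRNA in both. In MN1 cells they took 1.60% to 1.91% of total mRNA reads and 2.62% to 2.95% of footprints. In neurons these shares were 0.752% to 1.14% and 1.55% to 1.86%, so that the ranges of the cell types do not overlap in either kind of library. Without Ndufs7, the neuron shares of total mRNA were 0.398% and 0.456% in the 2 libraries named above and 0.737% to 1.13% in the others. The difference between the cell types was not the same in all parts. Footprints of the F1 head summed to a median of 6711 CPM in MN1 cells and 4513 CPM in neurons. Those of complex IV summed to 3872 and 3858 CPM, and those of the assembly factors to 189 and 203 CPM.

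**Figure D1:**
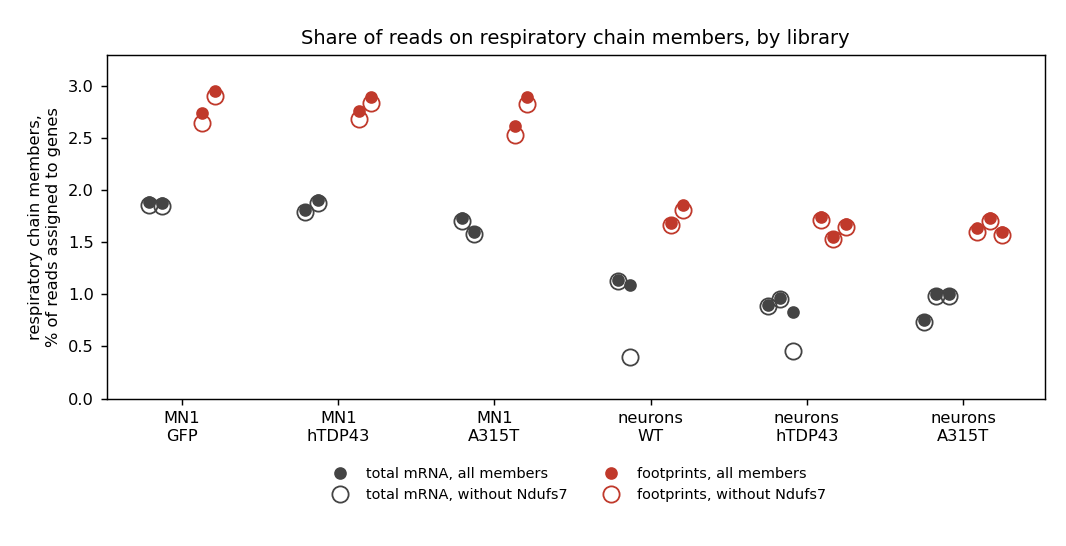
Share of reads assigned to genes that fall on the 93 members, in percent (vertical axis), for each library by cell type and group; filled circles are all members, open circles leave out Ndufs7, grey is total mRNA and red is footprints. Neuron total mRNA lies lowest, at 0.752% to 1.14%, and the open circles of WT replicate 3 and hTDP-43 replicate 3 fall to 0.398% and 0.456%.

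Levels of different members can be compared only per length, as CPM per kilobase of exon. In total mRNA of MN1 cells the highest median was that of Atp5b, the catalytic beta subunit of the ATP synthase (chr10:128083273-128090391, plus strand), at 801 CPM per kb. Cox8a and Cox6a1, small subunits of complex IV, followed with 533 and 386 CPM per kb. Ndufb9 led complex I with 278, Uqcr11 complex III with 256 and Sdhb complex II with 198 CPM per kb. In neurons Cox8a came first with 757 CPM per kb, ahead of Cox6a1 with 580 CPM per kb, and Atp5b was 8th with 214 CPM per kb. Uqcr11 led complex III there with 294, Ndufa2 complex I with 166 and Sdhd complex II with 71.9 CPM per kb, while Atp5a1 led the ATP synthase with 252 CPM per kb. Atp5b and Sdhb, the leaders of their complexes in MN1 cells, were lower in every neuron library than in any MN1 library.

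Several subunits of complex IV and of the ATP synthase have paralogs with tissue-restricted forms, and in most of these families the ubiquitous form carried nearly all reads in both cell types. Cox4i1 made up a median of 99.8% and 99.9% of Cox4 transcripts per kb in total mRNA of MN1 cells and neurons. Its partner Cox4i2, known from lung and low oxygen, was at 0 to 2.67 CPM in all total mRNA libraries. Cox7a1, the heart and muscle form, reached 1.07 CPM at most, Cox6b2, the testis form, 3.17 CPM, and Cox8b 1 read in all total mRNA libraries together. Cox8c had no reads in any library. A count of 0 allows up to 0.430 to 5.00 CPM in a neuron library of total mRNA and 1.00 to 2.26 CPM in one of MN1 cells, counting error only. Cox6a2, Cox7b2 and Ndufa4l2 departed from this pattern between the cell types.

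Cox6a2 (chr7:128205436-128206366, minus strand) is known as the form of subunit VIa in heart and skeletal muscle. It lay between 0.709 and 1.79 CPM in the 6 MN1 libraries of total mRNA. In neurons it was 19.3 and 8.51 CPM in WT, 4.45, 6.63 and 11.7 CPM in hTDP-43, and 10.9, 15.04 and 22.5 CPM in A315T. The ranges do not overlap. MN1 cells held 18 reads of it over 6 total mRNA libraries and 7 over 6 footprint libraries, so that the gene passed the filter on low counts through the neurons, where 281 and 183 were read. The level in neurons was 9.58 times that in MN1 cells in total mRNA (95% exact counting interval 5.95 to 16.4) and 17.6 times in footprints (8.38 to 44.4). Even so, Cox6a2 made up a median of 3.73% of the Cox6a transcripts per kb in neurons, against 0.479% in MN1 cells. Of the coding 30-base words of Cox6a1, 33.9% also occur elsewhere in the annotated transcripts, against 0% in Cox6a2. Reads that match more than 1 place were not counted, which can raise these shares, and by how much was not tested.

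Cox7b2 (chr5:71442824-71548205, minus strand), known from testis, was seen in every MN1 library and nearly absent from neurons. It measured 2.69 to 6.56 CPM in total mRNA of MN1 cells and 10.6 to 23.6 CPM in their footprints. Neurons had 1 read of it over 8 total mRNA libraries against 63 reads over 6 in MN1 cells and a level 103 times that of neurons (95% interval 17.8 to 4120). None of the 8 footprint libraries of neurons held a read, and MN1 cells held 91, so the footprint level was at least 45.0-fold higher in MN1 cells. The gene supplied a median of 11.6% of Cox7b family transcripts per kb of exon in MN1 cells. Cox7b has 972 30-base words in its annotated transcripts, 211 of them coding, and Cox7b2 has 513 and 217. Dividing by exon length thus raises this share. Of the coding words, 34.6% in Cox7b also occur elsewhere in the annotated transcripts, against 0% in Cox7b2. Reads that match more than 1 place were not counted, which can raise it further, and by how much was not tested.

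Ndufa4l2 (chr10:127514939-127517152, plus strand), a paralog of the complex IV-associated subunit Ndufa4 that is known to be induced by low oxygen, behaved likewise. Its level in MN1 cells was 19.2 to 38.9 CPM in total mRNA and 19.9 to 48.7 CPM in footprints. In neurons it was 0 to 1.42 CPM in total mRNA, with 9 reads in all, and no footprint was read. The footprint level was at least 61.8-fold higher in MN1 cells, and in total mRNA it was 73.4 times that of neurons (95% interval 38.3 to 162). Bounds were set with 3 reads over the group in place of 0.

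The c ring of the ATP synthase is built from 1 mature protein that 3 genes encode. Atp5g3 supplied a median of 75.4% of the transcripts per kb of exon in MN1 cells and 80.8% in neurons. These shares depend on the annotated exon length. Atp5g1 has 4686 30-base words in its annotated transcripts, 379 of them coding, and Atp5g3 has 694 and 394. Dividing by exon length thus lowers Atp5g1 against Atp5g3, and shares per coding length are not given here. The share of Atp5g2 ran from 15.1% to 20.6% in MN1 libraries and from 5.14% to 11.9% in those of neurons, without overlap. Of the coding 30-base words, 100% in Atp5g1 and in Atp5g2 also occur elsewhere in the annotated transcripts, against 0% in Atp5g3. Reads that match more than 1 place were not counted, which can lower Atp5g1 and Atp5g2 against Atp5g3, and by how much was not tested. The Cox7a family was divided between Cox7a2 and Cox7a2l, with medians of 52.7% and 46.7% in total mRNA of MN1 cells. In footprints Cox7a2l made up 10.3% of the family in MN1 cells and 10.4% in neurons.

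**Figure D2:**
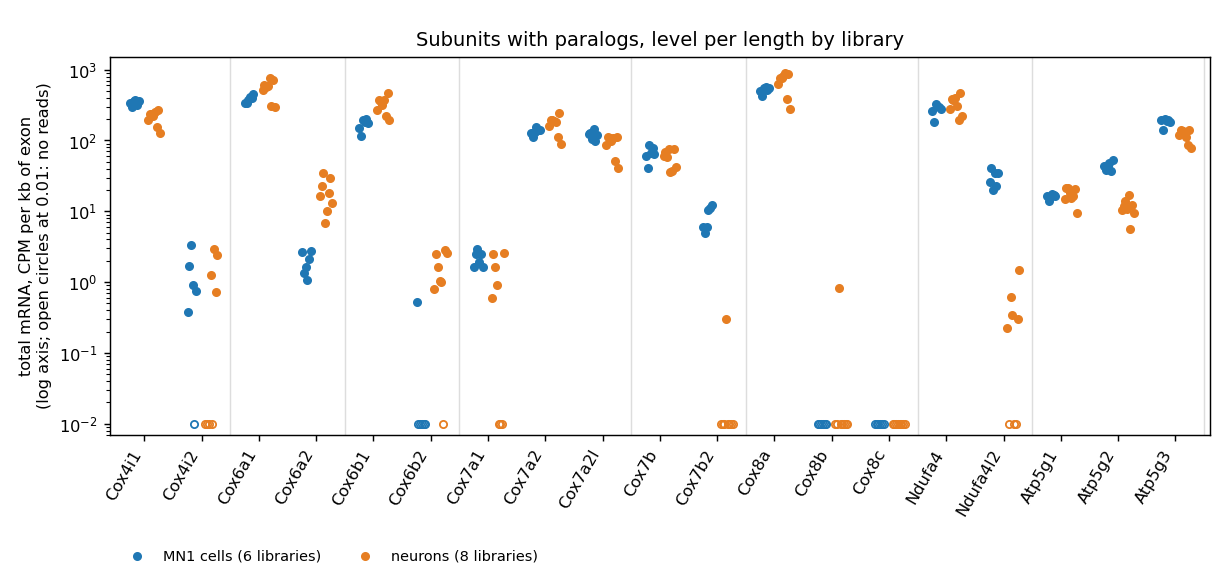
Level of subunits with paralogs in total mRNA, in CPM per kb of exon on a log axis, 1 point for each library of MN1 cells (blue, 6) and neurons (orange, 8), with open circles at 0.01 for libraries without a read. Cox6a2 is higher in every neuron library than in any MN1 library, and Cox7b2 and Ndufa4l2 were measured lower in every one. For Cox7b2, a count of 0 allows up to 5.00 CPM in a neuron library. That lies within its MN1 range, so single neuron libraries cannot be placed below it.

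Many respiratory chain promoters are known to carry sites for the factors NRF1, ETS (GABP), YY1 and ERR. Promoter windows of RefSeq (GRCm38.p6, 250 bases before to 50 after each start) were at hand for 74 of the 93 members and were searched on both strands. The NRF1 letters GCGCATGC occurred in 12 members (16.2% against 2.71% of all 32841 windows) and the YY1 letters AAGATGGCG in 7 (9.46% against 1.401%). The ETS letters CCGGAAGT were found in 5 (6.76% against 3.89%) and the ERR letters TCAAGGTCA in 2 (2.70% against 0.423%). No motif searched contains another, but the NRF1 letters overlap their own reverse complement. One or 2 windows of 30 bases are shown for each motif from members described here, 5′ to 3′ on the gene's strand with the motif in capitals.
Cox6a1, NRF1, chr5:115349102-115349131, minus strand: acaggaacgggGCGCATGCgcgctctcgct
Uqcrc1, NRF1, chr9:108936667-108936696, plus strand: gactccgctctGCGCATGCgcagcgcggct
Cox8a, ETS on the opposite strand, chr19:7217604-7217633, minus strand: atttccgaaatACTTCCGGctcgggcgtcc
Ndufs7, YY1, chr10:80249463-80249492, plus strand: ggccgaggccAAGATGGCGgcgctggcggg
Atp5j2, YY1, chr5:145191499-145191528, minus strand: ccaggacttcAAGATGGCGtcactcggtga
Sdhd, ERR on the opposite strand, chr9:50603800-50603829, minus strand: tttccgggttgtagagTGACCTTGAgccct
A match of letters is a description and says nothing about binding. Of the genes shown, Cox8a and Cox6a1 had the highest levels of complex IV per length in both cell types, and Sdhd was lower in neurons, as given below.

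The first comparison asked where respiratory chain mRNAs are more or less abundant between the cortical cultures and MN1 cells. For total mRNA, 42 members were lower in neurons and 12 higher, of 88 tested, and the median log2 fold change was -0.37, against 0.09 over all genes. In footprints, 49 were lower and 11 higher of 87, with a median of -0.38 against 0.05. The cell types differ widely in general: 42.6% of all genes tested were higher in neurons and 38.4% lower in total mRNA, and 42.7% and 39.9% in footprints. In footprints the members' share of lower calls, 56.3%, stood above this background and that of higher calls, 12.6%, below it. In total mRNA the excess of lower calls (47.7%) rested on WT replicate 3 and hTDP-43 replicate 3. Without them 34 members were lower and 22 higher, or 38.6% and 25%, where 38.1% of all genes were lower and 43.5% higher, so that the share of lower calls was close to the background and that of higher calls still below it. The median was then -0.12 against 0.11 over all genes. In 28 members every neuron library of total mRNA was below every MN1 library (background 30%), in 22 without the 2 libraries (31.3%), and in footprints this held for 32 (27.7%).

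Ndufa4l2 and Cox7b2 passed the filter on low counts through MN1 cells, with 9 and 1 neuron reads in total mRNA and 0 in footprints. Their fold changes are not ranked here, although the counts of lower members include them. Among the other members, the lowest log2 fold changes in total mRNA included those of Atp5b, Atp5g2 and Sdhb. Atp5b was 3116 to 3595 CPM in the 6 MN1 libraries of total mRNA. In neurons it measured 987 and 706 CPM in WT, 933, 904 and 791 CPM in hTDP-43, and 808, 907 and 944 CPM in A315T. The groups of libraries are far apart, with a log2 fold change of -2.02 ± 0.13 (SE; adjusted p = 1.80e-09) in total mRNA and -1.45 ± 0.10 (adjusted p = 2.02e-11) in footprints. Atp5g2 followed with -1.99 ± 0.18 and -1.68 ± 0.13.

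In complex II, which links the citric acid cycle to the chain, the 4 subunits split. Sdhb, the iron-sulfur subunit (chr4:140961203-140979193, plus strand), ranged from 433 to 486 CPM in MN1 total mRNA and from 84.5 to 172 CPM in neurons. Sdhb differed by -1.76 ± 0.14 (adjusted p = 2.89e-08), and the membrane anchors Sdhc and Sdhd by -1.52 ± 0.18 and -1.18 ± 0.16, both past the threshold. Sdha, the flavoprotein that binds succinate (chr13:74322254-74350280, minus strand), lay between 185 and 225 CPM in MN1 cells and between 177 and 237 CPM in neurons, with a log2 fold change of -0.08 ± 0.10 (adjusted p = 0.506). In footprints Sdha was higher in neurons, at 331 to 485 CPM against 208 to 283 CPM (0.48 ± 0.12, adjusted p = 7.02e-04), whereas Sdhb, Sdhc and Sdhd were lower (-1.58, -1.40 and -0.73, each past the threshold).

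Of the 7 core subunits of complex I, 4 were lower in neurons in total mRNA and 1, Ndufs7, was higher. Over all genes 38.4% were lower and 42.6% higher, and 38.1% and 43.5% without WT replicate 3 and hTDP-43 replicate 3. Without the 2 libraries named above 5 were lower, Ndufs7 among them, and 1, Ndufs8, was higher (0.43 ± 0.11). Ndufs7 was 184 to 224 CPM in MN1 cells, 139 to 192 CPM in 6 neuron libraries, and 10521 and 5296 CPM in WT replicate 3 and hTDP-43 replicate 3. With all libraries its log2 fold change was 2.46 ± 0.85 (adjusted p = 0.0148), and without these 2 cultures it was -0.32 ± 0.11 (adjusted p = 0.0134). In footprints Ndufs7 lay between 443 and 876 CPM in MN1 cells and between 211 and 590 CPM in neurons, ranges that overlap, and the log2 fold change was -0.98 ± 0.19 (adjusted p = 7.87e-05).

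Accessory subunits of complex I moved in both directions, as did all genes (38.4% lower and 42.6% higher in total mRNA). In total mRNA 12 of 29 were lower and 4 higher (8 and 6 without the 2 libraries), among them Ndufa9, Ndufb11 and Ndufb7 with -1.35 ± 0.12, -1.27 ± 0.18 and -1.23 ± 0.19 on the lower side. Ndufb2 rose from 3.58 to 9.60 CPM in MN1 cells to 16.4 to 26.9 CPM in neurons, and Ndufa3 from 17.5 to 32.5 CPM to 37.6 to 102 CPM. Their log2 fold changes were 1.56 ± 0.19 and 1.31 ± 0.23 in total mRNA and 0.98 ± 0.25 and 1.06 ± 0.11 in footprints. The ranges of both genes in total mRNA are disjoint, and in footprints that of Ndufa3 is. In footprints Ndufb7 was at -1.32 and Ndufa12 at -1.36 ± 0.13, both past the threshold, but for Ndufa12 76.6% of the coding 30-base words occur elsewhere.

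Assembly factors, which help to build complex I and are not part of it, were also mixed, with 4 of 8 lower and 3 higher in total mRNA, with or without the 2 libraries. With 8 genes, these counts are close to the 38.4% lower and 42.6% higher of all genes. Ndufaf5, a modifier of Ndufs7, lay between 8.35 and 12.5 CPM in MN1 cells and between 11.7 and 37.1 CPM in neurons (1.31 ± 0.22), with ranges that overlap, and Ndufaf7 and Ndufaf3 differed by 0.83 ± 0.22 and 0.80 ± 0.22. In footprints Ndufaf7 and Ndufaf5 differed by 1.11 ± 0.19 and 1.05 ± 0.22, and Ndufaf8 and Ndufaf4 by -1.59 ± 0.25 and -1.34 ± 0.23, all past the threshold.

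Complex III had 5 of 8 subunits lower and none higher in total mRNA, and without the 2 libraries 3 lower and 2 higher, Uqcrh (0.55 ± 0.11) and Uqcr11 (0.34 ± 0.11). The backgrounds for complexes III and IV were 38.4% lower and 42.6% higher with all libraries, and 38.1% and 43.5% without the 2. In complex IV, 5 of 13 tested were lower and 2 higher, and without the 2 libraries 4 were lower and 6 higher. The genes higher in that fit alone were Cox6a1 (0.78 ± 0.10), Cox8a (0.65 ± 0.10), Cox7a2 (0.58 ± 0.10) and Cox6c (0.29 ± 0.10). The higher ones with all libraries were Cox6a2 and Cox6b1, the subunit that joins the monomers of the complex, between 58.2 and 101 CPM in MN1 cells and between 96.9 and 236 CPM in neurons. Cox6b1 differed by 0.87 ± 0.19 in total mRNA and 0.50 ± 0.11 in footprints, and Cox6a1 by 0.36 ± 0.11 in footprints. In the ATP synthase, Atp5mpl, a small membrane subunit, was higher in both (0.81 ± 0.21 and 0.39 ± 0.12), Atp5s in total mRNA (1.26 ± 0.37) and Atp5c1, the gamma subunit of the rotor, in footprints (0.38 ± 0.11). The 5 members not tested in total mRNA, Cox4i2, Cox6b2, Cox7a1, Cox8b and Cox8c, had too few reads in both cell types, and Atp5s joined them in footprints.

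**Figure D3:**
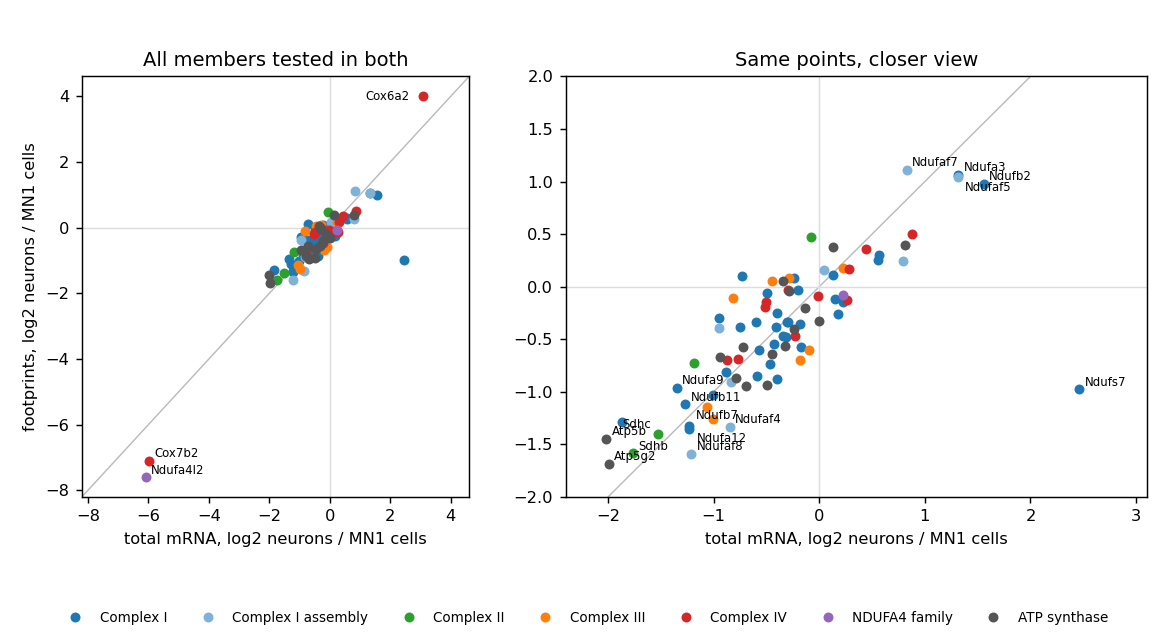
Log2 fold change of neurons over MN1 cells in total mRNA (horizontal) and footprints (vertical) for the members tested in both, coloured by complex, with a closer view on the right. The footprint values of Cox7b2 and Ndufa4l2, without neuron reads, depend on the prior count, and those of Cox6a2 rest on few MN1 reads; most points lie below 0 on both axes, and Ndufs7 is at 2.46 in total mRNA and -0.98 in footprints.

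Without WT replicate 3 and hTDP-43 replicate 3, the log2 fold changes of Atp5b, Sdhb, Sdhc and Sdhd in total mRNA were -1.84, -1.53, -1.26 and -0.91, each past the threshold. Within classes of exon length, the 30 members under 1 kb had a median of -0.18 and all protein-coding genes of that length -0.80, whereas the 9 members of 4 kb or more had -0.73 and all such genes 0.49. Without the 2 libraries these medians were 0.09 and -0.56, and -0.55 and 0.44. Cycloheximide before lysis was given to MN1 cells only, so cell type and protocol cannot be told apart.

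Related pathways outside the rule were counted in the same way, beside the background of 38.4% lower and 42.6% higher in total mRNA. Of 16 genes of pyruvate dehydrogenase and the citric acid cycle, 12 were lower and 2 higher in total mRNA, from Suclg2, a succinyl-CoA ligase subunit (-4.52 ± 0.22), to its isoform partner Sucla2 (0.78 ± 0.16). Of 12 electron carriers and energy transporters, 9 were lower and 1 higher, with Etfa, which carries electrons from fatty acid oxidation, at -2.81 ± 0.21 and Ckmt1, the mitochondrial creatine kinase, at 3.50 ± 0.22. Among 12 regulators of mitochondrial biogenesis, 9 were lower and 1 higher, Ppargc1a, the coactivator PGC-1alpha, at 5.88 ± 0.52, and Tfb1m lowest at -1.68 ± 0.29. Of 35 tested assembly factors outside the rule, 15 were lower and 6 higher, from Coa5 (-1.91 ± 0.12) to Lyrm7 (2.76 ± 0.28), so that their share of lower calls was near the background. Without WT replicate 3 and hTDP-43 replicate 3 the lists counted 11 lower and 2 higher (citric acid cycle), 9 and 2 (carriers), 9 and 1 (regulators) and 14 and 8 (assembly factors). In footprints the same lists counted 9 lower and 3 higher, 9 and 2, 8 and 2, and 15 and 8 of 31, with Pdha1 (1.37 ± 0.11), Ttc19 (2.30 ± 0.24) and Sco1 (-2.17 ± 0.33) at their ends beside Suclg2, Etfa, Ckmt1, Ppargc1a and Tfb1m.

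The second comparison set footprints against total mRNA within each cell type, a measure of relative ribosome occupancy. Nearly all respiratory chain mRNAs made up a larger part of the footprints than of the total mRNA. In MN1 cells 79 of 86 tested members were higher in footprints and 1 lower, with a median log2 ratio of 0.97 against -0.05 over all genes. In neurons 76 of 86 were higher and 1 lower, with a median of 1.04 against 0.00, and with the 2 WT cultures alone none passed. The backgrounds were 27.2% higher and 30.2% lower in MN1 cells, and 26.6% and 27.3% in neurons. Total mRNA was poly(A) selected and fragmented while footprints were cut by RNase I, so occupancy and library preparation cannot be told apart.

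The members with the highest ratios belonged to complexes I, III and IV, the NDUFA4 family and the ATP synthase. Cox7b, a small subunit of complex IV, was 49.7 to 105 CPM in MN1 total mRNA and 204 to 277 CPM in footprints, a log2 ratio of 1.82 ± 0.11 (adjusted p = 2.46e-08), and in neurons 1.59 ± 0.18 (adjusted p = 1.23e-06). Every footprint library of either cell type lay above every total mRNA library of it. In MN1 cells Cox7b2 (2.08 ± 0.27), Ndufb4 (1.86 ± 0.17), Ndufs7 (1.81 ± 0.15), Ndufa3 (1.66 ± 0.14), Atp5j2 (1.64 ± 0.12), Ndufa4 (1.59 ± 0.10), Cox7a2 (1.56 ± 0.09), Cox6b1 (1.53 ± 0.10) and Uqcrb (1.51 ± 0.15) completed the first 10. In neurons the leaders were Ndufa11 (1.63 ± 0.16), Cox7b, Cox5b (1.57 ± 0.15), Uqcrc2 (1.51 ± 0.12), Ndufs1 (1.46 ± 0.14), Cox5a (1.45 ± 0.14), Ndufb4 (1.43 ± 0.19), Ndufa3 (1.43 ± 0.18), Ndufs4 (1.37 ± 0.15) and Ndufa9 (1.36 ± 0.13). Of the coding 30-base words, 100% in Ndufb4, 90.5% in Uqcrb and 83.2% in Cox5b occur elsewhere, so their counts are uncertain.

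Cox7a2l, known for its part in joining complexes III and IV into supercomplexes (chr17:83501919-83514333, minus strand), was the exception in both cell types. It was 111 to 164 CPM in MN1 total mRNA and 30.8 to 67.7 CPM in MN1 footprints, without overlap, with a log2 ratio of -1.34 ± 0.14 (adjusted p = 2.00e-06). In neurons it measured 46.8 to 129 CPM in total mRNA and 33.3 to 70.1 CPM in footprints, -0.97 ± 0.21 (adjusted p = 8.95e-04), and -1.33 ± 0.15 without the 2 cultures named above. Its paralog Cox7a2 went the other way, from 85.5 to 118 CPM in MN1 total mRNA to 248 to 308 CPM in footprints. In Cox7a2l, 62.2% of coding 30-base words occur elsewhere in the transcripts, and what this did to the counts was not tested.

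Medians by role are given as a description, since differences between roles were not tested. In MN1 cells the median log2 ratio was 0.57 for complex II, 0.63 for the core of complex I, 0.78 for complex III, 0.98 for the accessory subunits of complex I, 1.15 for complex IV and 1.34 for the stalk and membrane part of the ATP synthase. The 8 assembly factors had a median of 0.57, with 4 past the threshold. Short transcripts were higher in footprints in general, with a median of 0.94 over all protein-coding genes under 1 kb of exon in MN1 cells against 1.12 for the 29 members of that class. At 4 kb or more, all genes had a median of -0.21 and the 9 members 0.85. In neurons the corresponding pairs were 0.81 and 1.03, and -0.18 and 0.89, and without the 2 cultures 0.52 and 0.80, and -0.13 and 0.64.

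**Figure D4:**
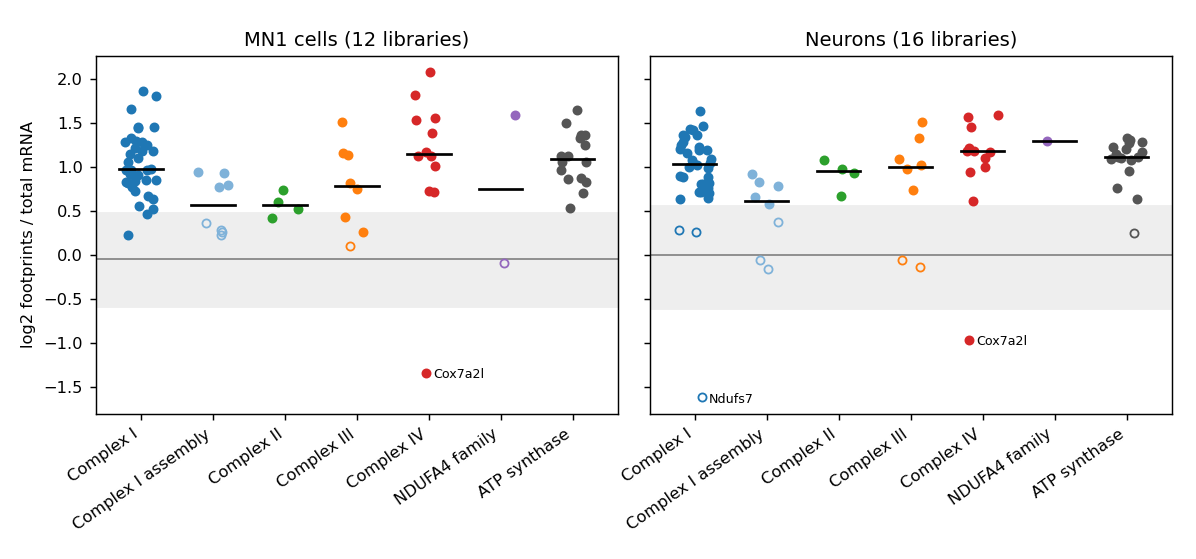
Log2 ratio of footprints to total mRNA for each member tested (vertical axis), by complex, in MN1 cells (left) and neurons (right). Filled points passed the threshold, open points did not, black bars are medians, and the grey line and band are the median and quartiles of all genes tested. Nearly all members lie above 0, and Cox7a2l is at -1.34 and -0.97.

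Without the 2 neuron cultures named above, 72 of 87 members were higher and 2, Cox7a2l and Uqcr11, lower (background 23.4% and 25.6%), and the median was 0.81. Ndufs7, at -1.62 ± 0.69 (adjusted p = 0.0576) with all libraries, was then at 0.90 ± 0.15 (adjusted p = 1.36e-04). Among the other pathways, 14 of 16 genes of pyruvate dehydrogenase and the citric acid cycle were higher in footprints in MN1 cells and 13 of 15 in neurons, and of the 12 carriers and transporters 11 were in each, with none lower. The biogenesis regulators gave 2 higher and 2 lower of 11 in MN1 cells and 1 and 2 of 12 in neurons. Of the assembly factors outside the rule, 10 were higher and 4 lower of 33 in MN1 cells, and 11 and 4 of 35 in neurons. Without the 2 cultures the neuron counts were 13 of 16, 10 of 12, 1 and 2 of 12, and 9 and 4 of 36.

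The third comparison tested whether the ratio of footprints to total mRNA differed between the cell types, as an interaction. Only MN1 cells had cycloheximide before lysis, so cell type and protocol cannot be told apart here either. The ratio was larger in neurons for 7 members and smaller for 1 of 88 (background 5.94% and 2.13%). The calls depended on single cultures, with none without hTDP-43 replicate 1 of MN1 cells, 21 without WT replicate 2 and none in the control groups alone. The median over all genes was 0.20 with TMM and -0.02 with the size factors of DESeq2 (RLE). The members' median was 0.04 with TMM and -0.18 with RLE, below that of all genes under both. Ndufs1, the largest subunit of complex I (chr1:63143596-63176833, minus strand), had the lowest p among the members, at 0.94 ± 0.19 (adjusted p = 0.00383). It measured 76.9 to 94.5 CPM in MN1 total mRNA and 93.6 to 148 CPM in footprints, and 43.6 to 69.6 CPM and 106 to 191 CPM in neurons. The footprint ranges of the cell types overlap, whereas those of total mRNA do not.

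Uqcrc1, a core subunit of complex III (0.82 ± 0.19), Ndufb10 (0.76 ± 0.20), Atp5b (0.68 ± 0.16), Sdha (0.66 ± 0.16) and Uqcrfs1, the Rieske protein of complex III (0.61 ± 0.19), also passed. With RLE, 1 member was higher, Ndufs1 (0.72, adjusted p = 0.0191), and 1 lower, Ndufs7, while over all genes the calls turned from 734 higher and 263 lower to 187 higher and 417 lower. Ndufs7 was at -3.34 ± 0.89 (adjusted p = 0.0200) with all libraries and at -0.76 ± 0.23 (adjusted p = 0.0414) without the 2 neuron cultures. Without them 6 members were higher and 4 lower (background 6.52% and 1.92%), their median was -0.18, Ndufs1 stayed at 0.96 ± 0.20, and Uqcrfs1 (0.38 ± 0.15, adjusted p = 0.128) no longer passed. Of the other lists, 7 of 16 citric acid cycle genes and 1 each of the 12 carriers and of the 12 regulators were higher, and none of the 35 assembly factors. Without the 2 cultures 6 citric acid cycle genes, no carrier, 1 regulator and 1 assembly factor were.

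The groups of cultures were then compared to ask what hTDP-43 and A315T did to the same mRNAs. With all cultures, the filter on low counts and no replicate block, no member passed the threshold in any of the 12 comparisons of footprints or total mRNA (edgeR's quasi-likelihood test and DESeq2). Leaving out 1 culture gave calls in total mRNA for A315T against GFP and against hTDP-43 in MN1 cells. It also gave calls for A315T against WT in neurons. The most calls came where 1 culture was left in a group. The share of all genes past the threshold was small as well. In MN1 cells it was 0.0115% in footprints and 0.00965% in total mRNA for A315T against GFP, 0% and 0% for A315T against hTDP-43, and 0% and 0.01% for hTDP-43 against GFP. In neurons it was 0% in all 6 comparisons. Comparisons within a cell type share cultures and are not independent of each other.

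Among the MN1 comparisons, total mRNA with A315T stood out by the direction of the members. All members are read from the same cultures, so their directions are not independent. In neurons, leaving out WT replicate 3 gave shifts of similar size, as given below. Against GFP, 76 of 85 tested members were negative, with a median log2 fold change of -0.28 against -0.004 over all genes, and 19 had an unadjusted p under 0.05 (11 with DESeq2). Counts at an unadjusted p under 0.05, here and below, are given without the share of all genes. They have no background to be read against. In 53 members both A315T cultures were below both GFP cultures, against 17.9% of all genes. With the replicate number as a block, which pairs cultures that carry the same date, 14 members were lower and none higher (background 1.68% lower). The same cultures gave a median of -0.001 in footprints, where 2 members had an unadjusted p under 0.05 (0 with DESeq2), 16 of 86 were lower without overlap (15.7%), and the block called none.

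Ndufa4, a subunit bound to complex IV (chr6:11900373-11907446, minus strand), had the lowest p with the block. It was 162 and 152 CPM in total mRNA with GFP, 145 and 137 CPM with hTDP-43 and 127 and 90.4 CPM with A315T. Both A315T cultures were the lowest, and the log2 fold change against GFP was -0.61 ± 0.11 (adjusted p = 0.00181) with the block and -0.59 ± 0.17 (adjusted p = 0.849) without it. In footprints the values were 344 and 412, 342 and 374, and 360 and 351 CPM, which overlap.

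Cox7b, at 105 and 81.8 CPM with GFP, 94.1 and 78.7 CPM with hTDP-43 and 72.4 and 49.7 CPM with A315T, differed from GFP by -0.69 ± 0.13 (block, adjusted p = 0.00339). Atp5k, the e subunit of the ATP synthase, was at 85.4 and 81.1, 78.4 and 76.9, and 60.9 and 45.6 CPM (-0.72 ± 0.14, adjusted p = 0.00377). In each of these genes the A315T cultures were below all others, and replicate 2 was the lower of the pair. Uqcrq of complex III (-0.44 ± 0.09), Cox6b1 (-0.56 ± 0.13), Atp5e, the epsilon subunit (-0.48 ± 0.11), Cox5b (-0.43 ± 0.10), Ndufa1 (-0.67 ± 0.17), Cox6c (-0.43 ± 0.11) and Atp5mpl (-0.68 ± 0.18) were the next with the block. Cox5b and Cox6c have 83.2% and 67.8% of their coding 30-base words elsewhere.

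By role, the medians were -0.33 for complex IV, -0.34 for the stalk and membrane part of the ATP synthase and -0.29 for accessory subunits of complex I, and -0.01 for the core of complex I, -0.06 for the F1 head and 0.02 for complex II. Differences between roles were not tested. Transcript length moved with the fold change. All protein-coding genes under 1 kb of exon had a median of -0.23 in this comparison, against -0.33 for the 28 members of that class, those of 1 to 2 kb -0.07 against -0.30, those of 2 to 4 kb 0.01 against -0.11 and those of 4 kb or more 0.01 against -0.10. The part of length in the result was not tested. The other pathway lists had medians of -0.10 (assembly factors), -0.06 (citric acid cycle), -0.13 (carriers) and 0.06 (regulators), with no gene past the threshold.

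Against hTDP-43, total mRNA with A315T gave a median of -0.22 over 87 members, with 69 negative, 15 at an unadjusted p under 0.05 (7 with DESeq2) and 47 lower without overlap (15.2% of all genes). The block called 2, both lower (background 0.198%). Atp5l, the g subunit of the ATP synthase, was 78.9 and 93.6 CPM with hTDP-43 and 60.6 and 54.2 CPM with A315T (-0.66 ± 0.15, adjusted p = 0.0336), but 100% of its coding 30-base words occur elsewhere. Cox6b1 was 101 and 90.0 CPM against 76.8 and 58.2 CPM (-0.59 ± 0.14, adjusted p = 0.0430). In the third pair, hTDP-43 against GFP, the median was -0.03 and 17 of 87 members were lower without overlap (10.6%), with none at an unadjusted p under 0.05 by either tool. Each MN1 group has 2 cultures. Reads were counted on mouse genes, and counts on Tardbp do not separate the mouse mRNA from reads of the human one that match it, so that they do not check the labels. Tardbp lay at 219 to 415 CPM in total mRNA of MN1 cells and 61.1 to 116 CPM in neurons.

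**Figure D5:**
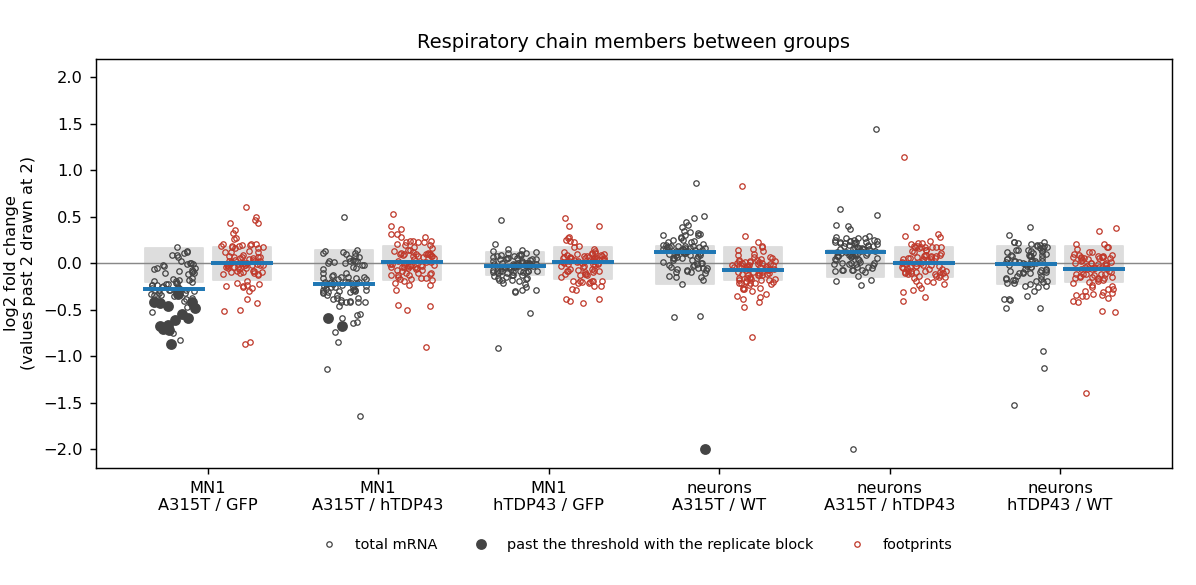
Log2 fold change of each member in the 6 comparisons between groups (vertical axis), for total mRNA (grey) and footprints (red); blue bars are medians, grey boxes the quartiles of all genes tested, and filled points passed the threshold with the replicate block, and values past 2 are drawn at 2. The median of MN1 total mRNA is -0.28 for A315T against GFP and -0.22 against hTDP-43.

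The ratio of footprints to total mRNA, tested as an interaction with the group, was higher with A315T than with GFP in 72 of 86 members in MN1 cells, by a median of 0.24 against -0.002 over all genes, and no member passed the threshold (0% of all genes). The lowest p belonged to Ndufa3, at 0.90 ± 0.33 (unadjusted p = 0.0181 in edgeR's test). Its total mRNA was 32.5 and 31.2 CPM with GFP and 30.3 and 17.5 CPM with A315T, and its footprints 68.5 and 64.8 CPM against 96.1 and 89.3 CPM. Ndufa3 was also the member with the lowest p in the footprints of this pair (0.47 ± 0.19, adjusted p = 1). Elsewhere in MN1 cells the lowest p belonged to Uqcrb in footprints of A315T against hTDP-43 (-0.50 ± 0.30), to Ndufb8 in footprints (0.40 ± 0.17) and to Ndufaf1 in total mRNA (-0.91 ± 0.40) of hTDP-43 against GFP, each with an adjusted p of 1. At an unadjusted p under 0.05 these comparisons counted 0, 1 and 0 members, and 0 with DESeq2.

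In neurons the comparison of A315T with WT in total mRNA turned with 1 library. The median was 0.12 with all libraries, with 63 of 86 members positive. Without WT replicate 3 it was -0.28 with 83 of 87 negative and no call, and without WT replicate 2, with WT replicate 3 as the only WT library, it was 0.70 with 24 members higher and 1 lower (background 5.96% and 6.57%). The only member past the threshold with the block was Ndufs7 (-3.04 ± 0.68, adjusted p = 0.00450, background 0.293% lower), which was 166 and 10521 CPM in the 2 WT cultures and 139 to 192 CPM with A315T. Without WT replicate 3 its log2 fold change was 0.02. Likewise A315T against hTDP-43 had a median of 0.12 and, without hTDP-43 replicate 3, -0.05, and hTDP-43 against WT had -0.004 and, without WT replicate 3, -0.39.

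Neuron footprints had medians of -0.07 for A315T against WT, 0.01 for A315T against hTDP-43 and -0.06 for hTDP-43 against WT. Cox6a2 was 28.4 and 46.8 CPM in WT, 13.9, 11.1 and 13.8 CPM in hTDP-43, and 17.6, 34.6 and 44.1 CPM in A315T. In hTDP-43 replicates 2 and 3 these values rest on 2 reads each, fewer than the 3 reads that a count of 0 allows. Their place below A315T replicate 1 therefore cannot be read. The log2 fold change was -1.39 ± 0.40 for hTDP-43 against WT (adjusted p = 0.724) and 1.14 ± 0.44 for A315T against hTDP-43 (adjusted p = 1). In total mRNA the latter was 1.45 ± 0.44 (adjusted p = 1), again the lowest p of that comparison. Uqcr10 had the lowest p for A315T against WT in footprints (-0.80 ± 0.29, adjusted p = 1), and Ndufaf2 for hTDP-43 against WT in total mRNA (-0.94 ± 0.45, adjusted p = 1). At an unadjusted p under 0.05, the 3 neuron comparisons of footprints counted 2, 1 and 2 members (0, 1 and 1 with DESeq2), and those of total mRNA 1, 2 and 0 (1, 1 and 0).

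The interaction of A315T against WT with library type in neurons had a median of -0.23, with 0% of all genes past the threshold. Without WT replicate 3 it was 0.33, so its direction rested on that culture. Ndufs7 had the lowest p (4.99 ± 1.43, adjusted p = 1), and 1 member was under an unadjusted p of 0.05 by either tool. In MN1 cells the same interaction counted 9 members at that level (2 with DESeq2).

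MN1 cultures numbered 1 and 2 carry different dates in the labels. With edgeR, replicate 1 against replicate 2 gave 3 members higher and 1 lower of 87 in total mRNA (background 8.52% and 6.42%). Ndufaf4 was 28.5 to 34.1 CPM in the 3 cultures of replicate 1 and 14.3 to 19.1 CPM in those of replicate 2 (0.90 ± 0.17, adjusted p = 0.00218), without overlap. Uqcr10 (0.43 ± 0.09) and Cox7b (0.40 ± 0.10) were higher and Ndufa4l2 was lower (-0.66 ± 0.16). In footprints 1 was higher and 5 lower of 86 (background 2.1% and 2.64%). Ndufs7 was the higher one (0.51 ± 0.13), and Cox8a (-0.46 ± 0.11), Ndufa11 (-0.44 ± 0.10), Ndufv3 (-0.42 ± 0.10), Atp5j2 (-0.39 ± 0.10) and Uqcrq (-0.34 ± 0.09) were lower. DESeq2 called no member in either kind of library, and with 1 culture left out edgeR called 2 to 10 (2 without either GFP culture) and 1 to 6 (1 without GFP replicate 1).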

How the data were processed

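Ribosome footprints and total mRNA were counted in 28 libraries. Per the labels and the methods of the study, the authors trimmed reads with cutadapt 1.8.1, removed non-coding RNA with Bowtie2, aligned to GRCm38 with TopHat2 and counted uniquely mapped reads on Ensembl exons with featureCounts 1.4.4. The deposited values are these raw counts for 45513 genes, and a strand setting is not given in the sources used here. Reads that match more than 1 place were therefore not counted, which lowers genes with near-identical copies.

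Gene symbols, biotypes and coding lengths came from GENCODE M21 (GRCm38), which held 44671 of the gene identifiers, and 59 of the 93 members had the same span in it. The members and all lists were chosen with earlier results of these data known. Genes that passed edgeR's filterByExpr (minimum count 10, minimum total count 15) were tested with edgeR 4.0.16's quasi-likelihood test (R 4.3.3, limma 3.58.1, TMM scaling), with Benjamini-Hochberg adjustment over all genes tested and a threshold of 0.05. SE is that of the log2 fold change. A CPM value uses TMM over all 28 libraries. Alternatives were DESeq2 1.42.0, RLE scaling, no filter, control groups only, each culture left out, a replicate block and, chosen after seeing the data, leaving out WT 3 and hTDP-43 3 of neurons and the GENCODE coding length. The model was tested on simulated data.

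Named genes were the 10 members past the threshold with the largest change in each direction between cell types or library types, those past it between groups or replicates with or without the block (the 10 with the lowest p, or else the 1 with the lowest), the paralog families, the Sdh genes and the highest of each complex. Members named for a call made without WT 3 and hTDP-43 3 alone were chosen after their values were seen. The values of 1 member that this rule names are not reported here, although counts and medians over the members include it. Same-numbered cultures of a cell type share their dates in the labels (1 GFP footprint library differs in its year), so the numbers pair them. Deviations from group means correlated at a mean r of 0.442 and 0.336 between same-numbered MN1 cultures (total mRNA and footprints) and of 0.171 and 0.120 between neuron cultures (ranges -0.175 to 0.520 and 0.0293 to 0.248). Where cultures share a source, p-values measure only the spread between these samples. No libraries held identical counts. Depth was 1328528 to 2988339 reads for MN1 total mRNA, 332370 to 1219222 for MN1 footprints, 600385 to 6969578 for neuron total mRNA and 166064 to 2528820 for neuron footprints, where a count of 0 allows up to 1.19 to 18.1 CPM. Intervals and such limits cover counting error only.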

Additional observations from a re-analysis of the deposited data

Results flagged for a closer look

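The log2 ratio of footprints to total mRNA of several members differed between neurons and MN1 cells by the test of the difference itself (edgeR's quasi-likelihood test, adjusted p under 0.05). Over all genes tested, 5.94% were larger in neurons and 2.13% smaller, and the members' shares were near these. Only MN1 cells had cycloheximide before lysis, so cell type and protocol cannot be told apart. The difference was 0.94 for Ndufs1, 0.82 for Uqcrc1, 0.76 for Ndufb10, 0.68 for Atp5b, 0.66 for Sdha and 0.61 for Uqcrfs1, and -3.34 for Ndufs7. With RLE scaling, Ndufs1 (0.72) and Ndufs7 (-3.58) stayed past the threshold, and the adjusted p of the other 5 lay between 0.0603 and 0.252. Without WT replicate 3 and hTDP-43 replicate 3 of neurons, Ndufs7 was at -0.76 and Uqcrfs1 at 0.38 (adjusted p = 0.128), and the other 5 named here kept their sign and passed. Leaving out hTDP-43 replicate 1 of MN1 cells left 0 calls among the members, as did the control groups alone, and leaving out WT replicate 2 gave 21. Groups held 2 or 3 cultures, too few for a test of single outlying samples.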

How the results depend on the processing

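Of the log2 fold changes of single members, 1323 kept their direction and side of the threshold under the alternatives, 118 lost the threshold, 22 gained it and 2 reversed. Both reversals were Ndufs7, at -0.32 between cell types in total mRNA without WT 3 and hTDP-43 3, and at 0.017 for A315T against WT in neuron total mRNA without WT 3 (-5.93 without WT 2). Medians over the members are not among these values, and some changed sign, among them those of A315T against WT and against hTDP-43 in neuron total mRNA, of the neuron interaction and of the difference between cell types. Of the counts of calls, 186 stayed within 1.5 times and 36 moved. With control groups only, fewer samples gave 17 members (5 higher, 12 lower) between cell types in total mRNA, 38 (6 and 32) in footprints, and 0 for footprints against total mRNA in neurons and for its difference between cell types, where 47 and 1 had an unadjusted p under 0.05 in edgeR. For that difference DESeq2 called 4, RLE 2. The replicate block called 14 for A315T against GFP and 2 for A315T against hTDP-43 in MN1 total mRNA and 1 for A315T against WT in neuron total mRNA, and changed no other count by over 1.5 times. Without a filter, 1 member passed in each of the neuron comparisons of total mRNA (A315T against WT, A315T against hTDP-43, hTDP-43 against WT) and 1 in the neuron interaction of A315T with library type. DESeq2 called 0 members between MN1 replicates in total mRNA and 0 in footprints, with 4 and 2 at an unadjusted p under 0.05. The cause of these changes was not tested. Per kb of coding length, the median of Atp5b in MN1 footprints was 2757 CPM against 1033 CPM per kb of exon; the length from RefSeq proteins was not run. Leaving out 1 culture at a time gave 0 to 4 calls for A315T against GFP in MN1 total mRNA (4 without GFP 2), 0 to 3 for A315T against hTDP-43 (3 without hTDP-43 2), 0 to 25 for A315T against WT in neuron total mRNA and 0 to 3 for its interaction with library type (both highest without WT 2), 0 to 21 for the difference between cell types (0 without MN1 hTDP-43 1, 21 without WT 2), 47 to 69 and 52 to 60 between cell types in total mRNA and footprints, 76 to 79 and 68 to 78 for footprints against total mRNA in MN1 cells and neurons, 2 to 10 and 1 to 6 between MN1 replicates, and 0 in all others. Where 1 sample was left in a group, it was assumed to vary like the others.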
